A study of Mus musculus with 8 samples.

Results

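N-acetylaspartate is an abundant metabolite of the brain, and 6 genes that make it, extend it, carry it or break it down were followed in cultured mouse oligodendrocyte progenitors: Aspa, Nat8l, Folh1, Rimkla, Rimklb and Slc13a3. The genes were chosen by pathway with the Cre-against-RFP changes of these same libraries already known, and for Aspa that change was the reason for looking. The differences between groups are therefore given as a description, and nothing is inferred from whether the genes pass a threshold in that comparison. All 6 symbols were found among the 24155 genes of the table, and all 6 passed the filter on low counts, which left 18102 genes tested.

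N-acetylaspartate is made from aspartate and acetyl-CoA, mainly in neurons, and is coupled to glutamate to form the dipeptide N-acetylaspartylglutamate (NAAG). Oligodendrocytes split N-acetylaspartate into aspartate and acetate, and the acetate can feed the synthesis of myelin lipids. Loss of the splitting enzyme, aspartoacylase, causes the leukodystrophy Canavan disease in humans.

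Polyadenylated RNA was sequenced from 8 cultures of progenitors immunopanned from male and female pups at postnatal day 7. All cultures carried floxed alleles of both Ehmt1 and Ehmt2 (Ehmt1fl/fl;Ehmt2fl/fl), which encode partner methyltransferases for lysine 9 of histone H3, and all were kept in SATO medium with 10 ng/mL PDGF-AA and 20 ng/mL bFGF. The 4 cKO cultures received Ad-RFP-iCre, an adenovirus with Cre recombinase and a red fluorescent protein, and the 4 control cultures received Ad-RFP, which lacks Cre. Cells were exposed to 10 infectious units of virus per cell during 6 hours and were harvested at 72 hours. Each of batches 1, 3, 4 and 6 supplied 1 cKO and 1 control library, so the groups were compared within batches. The labels do not say whether batches came from separate animals, and the spread between pairs may be partly technical. Because virus was added to a whole culture and whole cultures were sequenced, fewer cells of a type and less RNA per cell cannot be told apart.

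Libraries held 43542742 to 65374488 counts. Ehmt1 averaged 41.5 ± 3.98 CPM in cKO and 95.5 ± 5.58 CPM in control libraries, and Ehmt2 averaged 58.4 ± 5.86 CPM in cKO and 177 ± 17.1 CPM in control libraries (CPM, counts scaled to library size, mean ± SD, n = 4 per group). The groups did not overlap for either gene, in the direction the labels give. The progenitor genes Pdgfra, Cspg4, Sox10, Olig1, Olig2, Ptprz1, Gpr17 and Lhfpl3 summed to 7932 to 11892 CPM in cKO and 8626 to 13213 CPM in control libraries. Their sum was lower in cKO in all 4 pairs. In the fit with batch as a block, their log2 fold changes ran from -0.31 for Pdgfra to 0.13 for Lhfpl3, with a median of -0.04. Of 10 microglial genes listed, 7 were not analysed here. P2ry12, a receptor gene of resting microglia, had 0.376 to 1.41 CPM in cKO and 0.190 to 0.823 CPM in control libraries and was higher in cKO in all 4 pairs. Mitochondrially encoded genes took up to 3.63% of counts in cKO and up to 3.24% in control libraries, and their share was higher in cKO in all 4 pairs.

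The promoters of the 2 genes with the largest differences in opposite directions are shown first, because Aspa and Slc13a3 start from sequences of different base composition. Both are RefSeq windows in GRCm38.p6 on the minus strand, from 250 bases before to 50 bases after the start site, read 5′ to 3′, with CpG dinucleotides in capitals. The Aspa window is chr11:73324588-73324887 and the Slc13a3 window is chr2:165473148-165473447.

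Aspa: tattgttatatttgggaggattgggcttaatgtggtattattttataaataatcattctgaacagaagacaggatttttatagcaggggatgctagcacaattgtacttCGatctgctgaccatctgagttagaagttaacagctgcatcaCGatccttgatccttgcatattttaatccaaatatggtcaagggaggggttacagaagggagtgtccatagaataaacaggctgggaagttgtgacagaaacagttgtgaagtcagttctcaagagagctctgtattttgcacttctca

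Slc13a3: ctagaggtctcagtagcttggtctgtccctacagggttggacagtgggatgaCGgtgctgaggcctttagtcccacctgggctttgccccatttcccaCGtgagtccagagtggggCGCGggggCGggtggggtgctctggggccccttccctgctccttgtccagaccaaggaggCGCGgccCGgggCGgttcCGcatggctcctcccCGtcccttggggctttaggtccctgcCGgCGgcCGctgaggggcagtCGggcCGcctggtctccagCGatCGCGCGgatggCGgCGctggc

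The Aspa window held 2 CpG dinucleotides at a GC content of 39.0%, and the Slc13a3 window held 22 at 69.3%. Among 32851 RefSeq windows of this length the median was 7 CpG dinucleotides, and 14.1% had fewer than Aspa while 76.9% had fewer than Slc13a3. Folh1 was also CpG-poor, with 4. Rimkla and Rimklb were CpG-rich, with 36 and 47. The Aspa window had 3 matches to the TATA-box letters TATAAA, counted on both strands with a pair of them overlapping, and 4 to the E-box letters CANNTG. The Slc13a3 window had 0 and 2 such matches. Of all windows, 13.6% held TATAAA and 72.3% held CANNTG. The letters ACAANG, a core recognised by SOX factors, occurred once or more in 41.2% of windows, with 1 match in Slc13a3 and 0 in Aspa. Matches of letters describe the sequence only. The RefSeq start site of Aspa lies 4959 bases inside the upstream end of the gene as the table draws it (chromosome 11, 73304992 to 73329596, mm10, minus strand, protein-coding). For Rimklb the distance is 12456 bases.

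Aspa encodes aspartoacylase, the enzyme that frees acetate and aspartate from N-acetylaspartate in oligodendrocytes. Its level was 2.50, 0.380, 1.01 and 1.68 CPM in cKO libraries 1, 3, 4 and 6, against 0.725, 0.0723, 0.238 and 0.417 CPM in control libraries of the same batches. The cKO library was the higher in every batch, yet the groups overlapped, because control library 1 stood above cKO library 3. These levels rest on few reads, namely 142, 17, 51 and 104 counts in cKO and 37, 4, 15 and 22 counts in control libraries. The paired fit gave a log2 fold change of 1.97 ± 0.21 (SE), or 3.93-fold of control. Taken straight from the CPM, the log2 differences in batches 1, 3, 4 and 6 were 1.79, 2.39, 2.08 and 2.01. With a prior count of 2, which pulls pairs of few counts towards 0, they were 1.74, 1.93, 1.93 and 1.92. Among the 18102 genes tested this was the 82nd highest fold change.

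Slc13a3 (chromosome 2, 165405028 to 165473230, minus strand) encodes a sodium-coupled dicarboxylate transporter that takes N-acetylaspartate into glial cells. It had 4.79, 1.65, 1.38 and 3.03 CPM in cKO libraries 1, 3, 4 and 6, against 7.98, 2.55, 3.08 and 5.11 CPM in control libraries. Every cKO library was below its batch partner, and the groups again overlapped. The log2 fold change was -0.80 ± 0.11 (SE), which is 57.2% of control, with the greatest difference in batch 4 (-1.15) and the smallest in batch 3 (-0.63), taken straight from the CPM. Uptake and breakdown genes of N-acetylaspartate thus moved in opposite directions in the same 4 pairs.

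**Figure D1:**
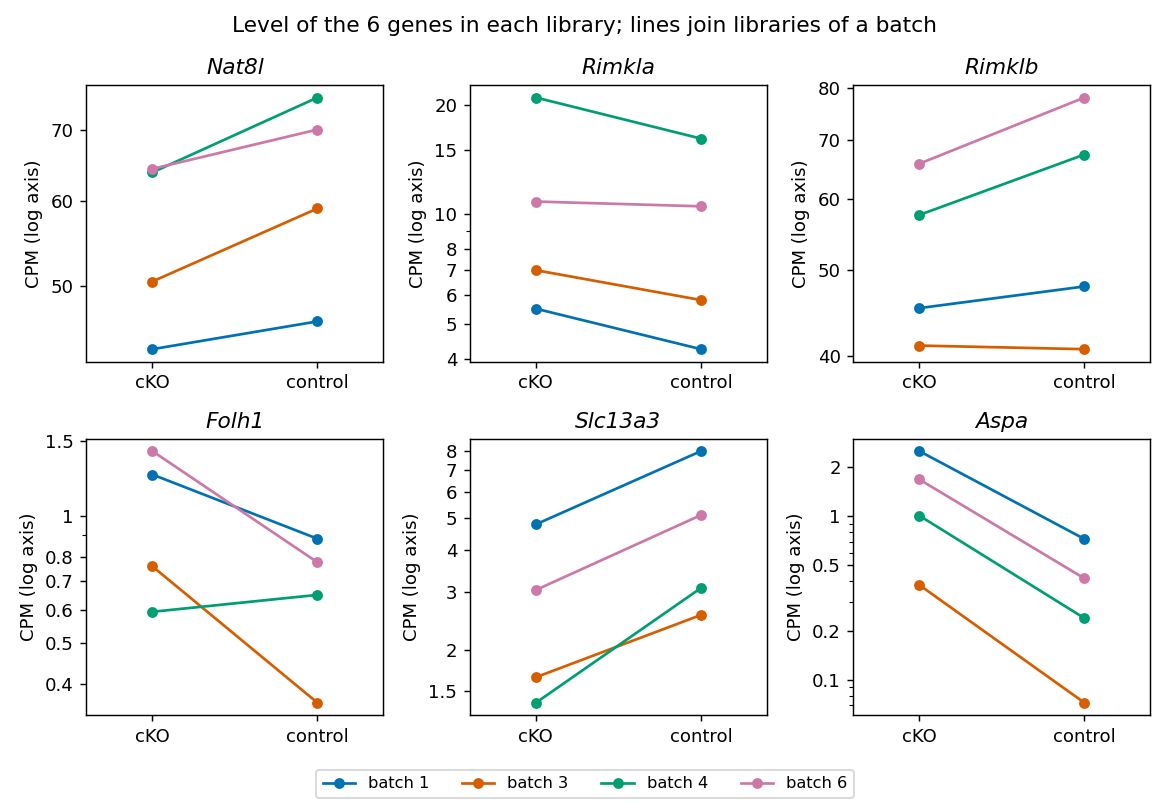
Level of each gene in CPM (log axis) in cKO (left) and control (right) libraries, with a line joining the libraries of each batch. All 4 lines of Aspa slope one way and those of Slc13a3 the other. For every gene shown, the highest and lowest batches differ by a larger fold than the groups do.

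Nat8l (chromosome 5, 33995984 to 34005916, plus strand) encodes the transferase that makes N-acetylaspartate. Progenitors carried it at a much higher level than the enzyme that breaks the product down: 43.6, 50.5, 63.9 and 64.4 CPM in cKO libraries 1, 3, 4 and 6, against 46.3, 59.1, 75.1 and 70.1 CPM in control libraries. The difference was small and of the same sign in all 4 pairs, at a log2 fold change of -0.17 ± 0.04 (SE), or 89.0% of control.

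Rimkla and Rimklb encode the ligases that join glutamate to N-acetylaspartate to form NAAG. Rimkla (chromosome 4, 119465283 to 119492628, minus strand) had 5.50, 7.01, 20.9 and 10.8 CPM in cKO libraries 1, 3, 4 and 6, against 4.25, 5.81, 16.1 and 10.5 CPM in control libraries. It was higher in cKO in all 4 pairs, by little in batch 6 (0.04 on the log2 scale), with a log2 fold change of 0.26 ± 0.08 (SE). Rimklb (chromosome 6, 122447296 to 122498761, minus strand) had 45.3, 41.1, 57.6 and 65.8 CPM in cKO, against 47.9, 40.7, 67.4 and 78.1 CPM in control libraries. Here 3 pairs were lower in cKO and 1, batch 3, was near level, and the log2 fold change was -0.14 ± 0.05 (SE). The fitted changes of the related ligases thus had opposite signs, but both were small and that of Rimklb did not pass the threshold given below. The processed pseudogene Gm8430 lies within Rimklb on the other strand at 176 ± 10.6 CPM in cKO and 164 ± 11.8 CPM in control libraries (SD, n = 4 per group). No source used here states a strand setting for the counting, so reads of the overlap cannot be told apart.

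Folh1 (chromosome 7, 86718977 to 86775943, minus strand) encodes glutamate carboxypeptidase II, which cuts NAAG back into glutamate and N-acetylaspartate. It had 1.25, 0.759, 0.593 and 1.42 CPM in cKO libraries 1, 3, 4 and 6, against 0.882, 0.362, 0.650 and 0.776 CPM in control libraries. Batches 1, 3 and 6 were higher in cKO and batch 4 was slightly lower. The log2 fold change was 0.57 ± 0.23 (SE), and counts ran only from 20 to 88 per library.

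**Figure D2:**
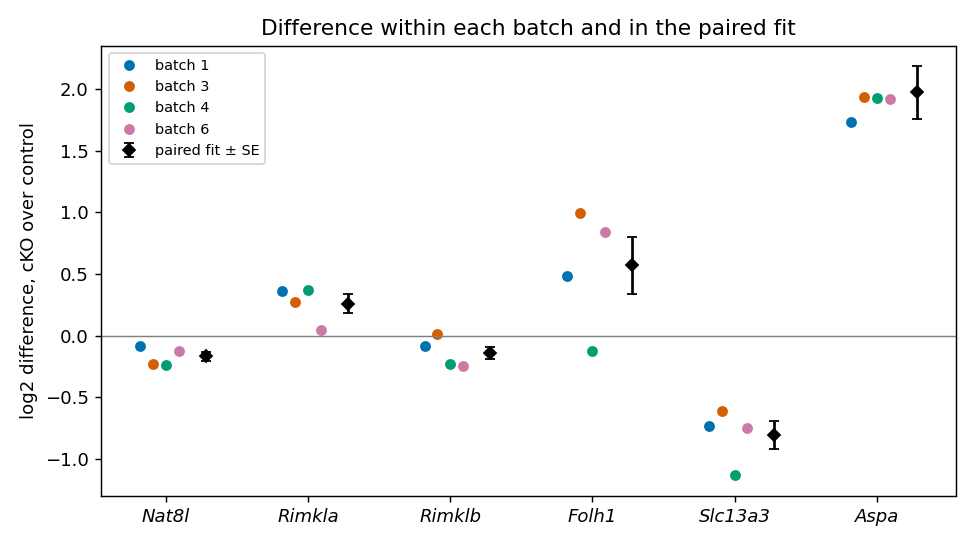
Log2 difference of cKO over control within each batch (coloured points, prior count of 2) and in the paired fit (black diamonds, bars ± SE) for the 6 genes. Aspa lies between 1.74 and 1.93 with this prior count, which narrows its spread, Slc13a3 is below 0 in all 4 batches, and Folh1 spreads on both sides of 0.

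At an adjusted p threshold of 0.05 (edgeR quasi-likelihood test with the batch as a block, Benjamini-Hochberg over all genes tested), 4 of the 6 genes were called: Aspa and Rimkla as higher, Slc13a3 and Nat8l as lower. Folh1 and Rimklb were not called. Of all genes tested, 20.5% were called, 10.0% higher and 10.4% lower. Since the genes were picked with this comparison in view, nothing is read from their share. None of the 6 had groups that did not overlap, which held for 3.68% of all genes. Without the block the fold changes were nearly the same, from 1.95 for Aspa to -0.78 for Slc13a3, but none of the 6 genes was called and only 3 genes of the table were. The calls of Nat8l and Rimkla also depended on single batches: Nat8l was not called without batch 3 or without batch 4, and Rimkla was not called without batch 1, 3 or 4 or in DESeq2.

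How the 6 genes varied between batches is separate from the comparison with which they were picked. Each differed between batches beyond the spread left after batch and group (edgeR F test of the 3 batch terms, adjusted over all genes), as did 66.7% of genes tested. Aspa spanned the widest range, with a mean of both groups of 1.61 CPM in batch 1 and 0.226 CPM in batch 3, a 7.14-fold span (adjusted p = 9.90e-05). Rimkla spanned 3.80-fold, from 4.88 CPM in batch 1 to 18.5 CPM in batch 4 (adjusted p = 3.98e-07). The transporter Slc13a3 spanned 3.04-fold and was highest in batch 1 (adjusted p = 1.44e-05). Folh1 spanned 1.96-fold (adjusted p = 0.0416), Rimklb 1.76-fold (adjusted p = 5.33e-06) and Nat8l 1.55-fold (adjusted p = 7.21e-06). The batch term of Folh1 is the weakest of these, and DESeq2 called 5 of the 6 genes between batches.

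Over the 8 libraries, Aspa went along with Folh1 (Pearson r of log2 CPM, prior count of 2, 0.86), and Nat8l with Rimkla (r = 0.80) and Rimklb (r = 0.77). Slc13a3 had an r of 0.19 with Aspa and of -0.56 with Rimkla. These values describe 8 libraries that share 4 batches and are not tested. The genes that followed Aspa most closely, among those with a mean of at least 1 CPM, were Mtmr11 (r = 0.98), Sardh (r = 0.98), Ugt1a6a (r = 0.97), Nxpe4 (r = 0.97) and mt-Nd5 (r = 0.97). Sardh encodes sarcosine dehydrogenase of mitochondria, and its log2 fold change was 0.64 ± 0.04 (SE). Ugt1a6a, a glucuronosyltransferase that shares exons with other Ugt1a genes so that its count is uncertain, had 1.66 ± 0.17. The closest to Slc13a3 were Dtna (r = 0.98), Phgdh (r = 0.96) and Stt3b (r = 0.96). Phgdh begins serine synthesis from a glycolytic intermediate and is strongly expressed in astrocytes. Those nearest Folh1 were Tmc3, Esrrg and Mrpl1 (r from 0.95 to 0.97). Msl1, Tbc1d22b and Mib2 followed Nat8l, Vxn, Apba1 and Dynll1 followed Rimkla, and Eepd1, Mmd2 and Fam210b followed Rimklb, all with r of about 0.99.

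Levels of different genes are comparable only per length, so they were also expressed as TPM, counts per base scaled to the library, over the exon union of each gene. In cKO libraries the order was Rimklb (36.2 ± 8.32 TPM), Nat8l (32.3 ± 6.32), Rimkla (10.3 ± 6.57), Slc13a3 (2.02 ± 1.16), Folh1 (1.21 ± 0.48) and Aspa (0.91 ± 0.59), as mean TPM ± SD with n = 4. In control libraries it was the same order, with Rimklb at 40.5 ± 12.1 TPM, Nat8l at 36.5 ± 7.71, Rimkla at 8.61 ± 5.11, Slc13a3 at 3.49 ± 1.83, Folh1 at 0.81 ± 0.27 and Aspa at 0.24 ± 0.18 (mean ± SD, n = 4). Rimklb and Nat8l overlapped in range in both groups, as did Folh1 and Aspa. Slc13a3 and Folh1 overlapped in cKO libraries and were apart in control libraries, whereas Rimkla and Slc13a3 overlapped in control libraries and were apart in cKO libraries. The synthetic genes thus stood well above the degrading gene in both groups of progenitors.

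**Figure D3:**
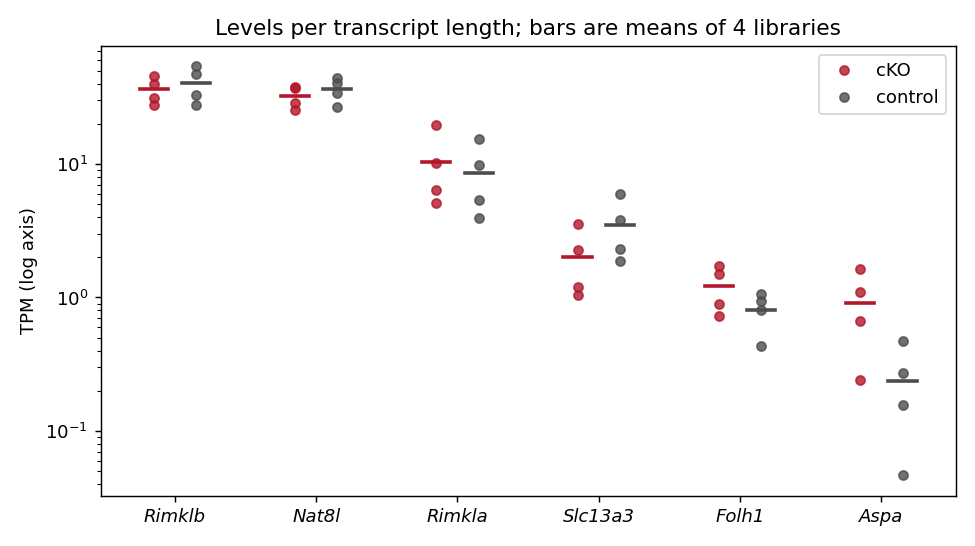
Level per transcript length in TPM (log axis) for each library, with cKO in red on the left and control in grey on the right of each gene and bars at the mean of 4 libraries. Rimklb and Nat8l lie between 25.3 and 53.9 TPM in all libraries, and Aspa is at most 1.62 TPM.

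Aspa is known as a gene of mature oligodendrocytes, and it was set beside 16 other genes of that stage. Of the 14 tested, 9 rose in cKO, 0 fell and 5 did not pass, where 10.0% of all genes tested were called higher and 10.4% lower. Their median log2 fold change was 0.87, against -0.01 over all genes tested. Mog, a late surface protein of myelin, rose by 1.27 ± 0.37, Gjb1, which encodes a connexin, by 1.25 ± 0.11 and Mag, an adhesion protein of the inner myelin layer, by 0.63 ± 0.07 (log2 fold change ± SE). Aspa's fold change was above that of each of the 14. Across batches its level and theirs were ordered differently: the summed 16 genes were highest in batch 4, at 3323 CPM in the cKO and 2160 CPM in the control library, whereas Aspa was highest in batch 1, where the sum was 997 CPM in the cKO and 719 CPM in the control library. The sum was higher in cKO in all 4 pairs, ranging from 487 to 3323 CPM in cKO and from 384 to 2160 CPM in control libraries. Correlations of Aspa with the 14 genes over 8 libraries ran from 0.07 for Cnp to 0.81 for Mal, with a median of 0.55. The part of maturing cells in the difference of Aspa was not tested.

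**Figure D4:**
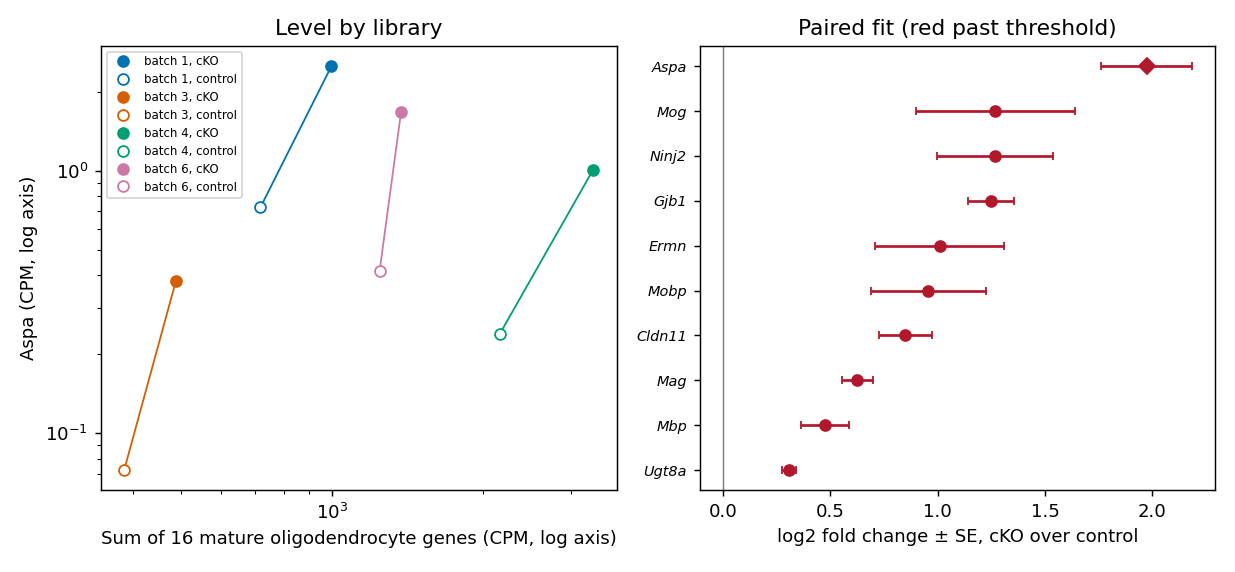
Left, Aspa level against the summed level of 16 mature oligodendrocyte genes (both CPM, log axes), with filled points for cKO, open points for control and a line per batch. Right, log2 fold change ± SE of Aspa (diamond) and the 9 of these genes that rose; Aspa at 1.97 is followed by Mog at 1.27.

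Slc13a3 and Folh1 are expressed in astrocytes, and Nat8l and Rimkla in neurons, so markers of those cells were read beside them. The 10 astrocyte genes summed to 1166 to 2822 CPM in cKO and 1257 to 3073 CPM in control libraries, a sum lower in cKO in all 4 pairs. Slc1a3, which fell, weighs most in that sum, at 944 CPM in cKO and 1137 CPM in control libraries on average. The median log2 fold change of the 10 genes was 0.05, so the sum does not speak for the list as a whole. Of the 10 genes, 4 fell, among them Fgfr3 (-0.62 ± 0.07) and Gja1 (-0.37 ± 0.06), while Gfap (0.86 ± 0.17) and Aqp4 (0.62 ± 0.13) rose (log2 fold change ± SE). The shares over all genes tested were 10.4% lower and 10.0% higher. Slc13a3 had a median r of 0.33 with the 10 genes over 8 libraries (range -0.29 to 0.84), and Folh1 one of 0.55 (range -0.05 to 0.87). With the 9 neuron genes tested, the median r was -0.21 for Nat8l and -0.39 for Rimkla, but the list was split. For Nat8l the values ran from -0.72 with Stmn2 to 0.85 with Syp. For Rimkla they ran from -0.54 with Nefl to 0.98 with Syp. The neuron genes listed, without Slc17a6, summed to 99.6 to 131 CPM in cKO and 66.9 to 123 CPM in control libraries. That sum was higher in cKO in all 4 pairs, whereas Nat8l was lower in cKO in all 4. Of the 9 neuron genes tested 4 rose and 0 fell, where 10.0% of all genes tested were called higher and 10.4% lower. Slc17a6 was not analysed here, and Slc17a7 and Gad2 were under the filter. Of the 10 vascular and fibroblast genes, Cldn5, Cdh5 and Dcn were not analysed here and the rest summed to 1.74 to 4.37 CPM in cKO and 1.92 to 6.12 CPM in control libraries. The part of these cell types in the differences of the 6 genes was not tested.

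Further genes of the pathway were counted from lists drawn up by function. Over 38 tested genes outside the 6, 2 rose and 12 fell in cKO, against 10.0% higher and 10.4% lower over all genes. Of 12 tested genes that use acetate and acetyl-CoA for fatty acids, 7 fell, 0 rose and 5 did not pass, with a median log2 fold change of -0.14. Acss1 and Acss2, the mitochondrial and the cytosolic enzyme that turn acetate into acetyl-CoA, fell by 0.38 ± 0.04 and 0.25 ± 0.04 (log2 ± SE, adjusted p = 3.86e-04 and 0.00331 in edgeR). Acss1 had 52.6, 55.3, 52.7 and 107.9 CPM in cKO libraries 1, 3, 4 and 6, against 69.3, 65.0, 75.9 and 139.2 CPM in control libraries, lower in each batch. Fasn, the fatty acid synthase, fell by 0.23 ± 0.03 (adjusted p = 0.00108 in edgeR), at 1167 ± 111 CPM in cKO and 1364 ± 104 CPM in control libraries (SD, n = 4 per group). Elovl5, an elongase of polyunsaturated fatty acids, fell by 0.17 ± 0.03 (adjusted p = 0.00252 in edgeR). Acss3, another acyl-CoA synthetase of the list, had the largest fold change there, 1.15 ± 0.47 (log2 ± SE, adjusted p = 0.11 in edgeR), and did not pass, at 0.423, 0.246, 0.0989 and 0.242 CPM in cKO libraries 1, 3, 4 and 6, against 0.274, 0.0181, 0.0793 and 0.0947 CPM in control libraries. It was higher in cKO in all 4 pairs, on at most 24 counts per library.

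Among 13 genes of aspartate supply and linked amino acid metabolism, 4 fell and 0 rose, against 10.4% lower and 10.0% higher over all genes. Pcx, pyruvate carboxylase, fell by 0.46 ± 0.06 on the log2 scale, at 79.4 ± 12.8 CPM in cKO and 111 ± 29.1 CPM in control libraries (SD, n = 4 per group). Got2, the mitochondrial aspartate aminotransferase, had 149, 142, 146 and 135 CPM in cKO libraries 1, 3, 4 and 6, against 178, 163, 168 and 158 CPM in control libraries, so its groups did not overlap (log2 fold change -0.22 ± 0.03). Glud1, glutamate dehydrogenase, fell by 0.27 ± 0.03 and Slc1a3, a glutamate and aspartate transporter that is also an astrocyte marker, fell by 0.28 ± 0.03 (log2 ± SE). Asns, which makes asparagine from aspartate, had a log2 fold change of -0.003 ± 0.04 and did not pass.

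Of 5 tested genes that handle NAAG or related substrates, 1 fell and 0 rose. Over all genes tested, 10.4% were called lower and 10.0% higher, and lists this short cannot be told apart from that share. The gene that fell was Slc15a2, a peptide transporter that can carry NAAG, at -0.36 ± 0.04 (log2 ± SE, adjusted p = 3.31e-04 in edgeR), with 34.1, 21.6, 26.9 and 53.2 CPM in cKO libraries 1, 3, 4 and 6, against 44.4, 28.5, 31.9 and 70.6 CPM in control libraries. Grm3, a metabotropic glutamate receptor on which NAAG can act, had a log2 fold change of -0.14 ± 0.07 and did not pass. Of 3 tested amidohydrolases akin to or sharing substrates with aspartoacylase, 0 passed. Acy3, the closest relative of Aspa, had 1.24 ± 0.47 CPM in cKO and 1.17 ± 0.58 CPM in control libraries (SD, n = 4 per group), with a log2 fold change of 0.11 ± 0.17. Among 5 tested paralogs of the 6 genes, Nat8f4 (0.69 ± 0.09) and Nat8f1 (0.37 ± 0.10), relatives of Nat8l, rose (log2 ± SE, adjusted p = 5.81e-04 and 0.0260 in edgeR), the reverse sign of Nat8l. The Nat8f genes are close copies in a cluster, so counts may be shared among them, and Nat8f1 did not pass without batch 1, 3 or 4.

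**Figure D5:**
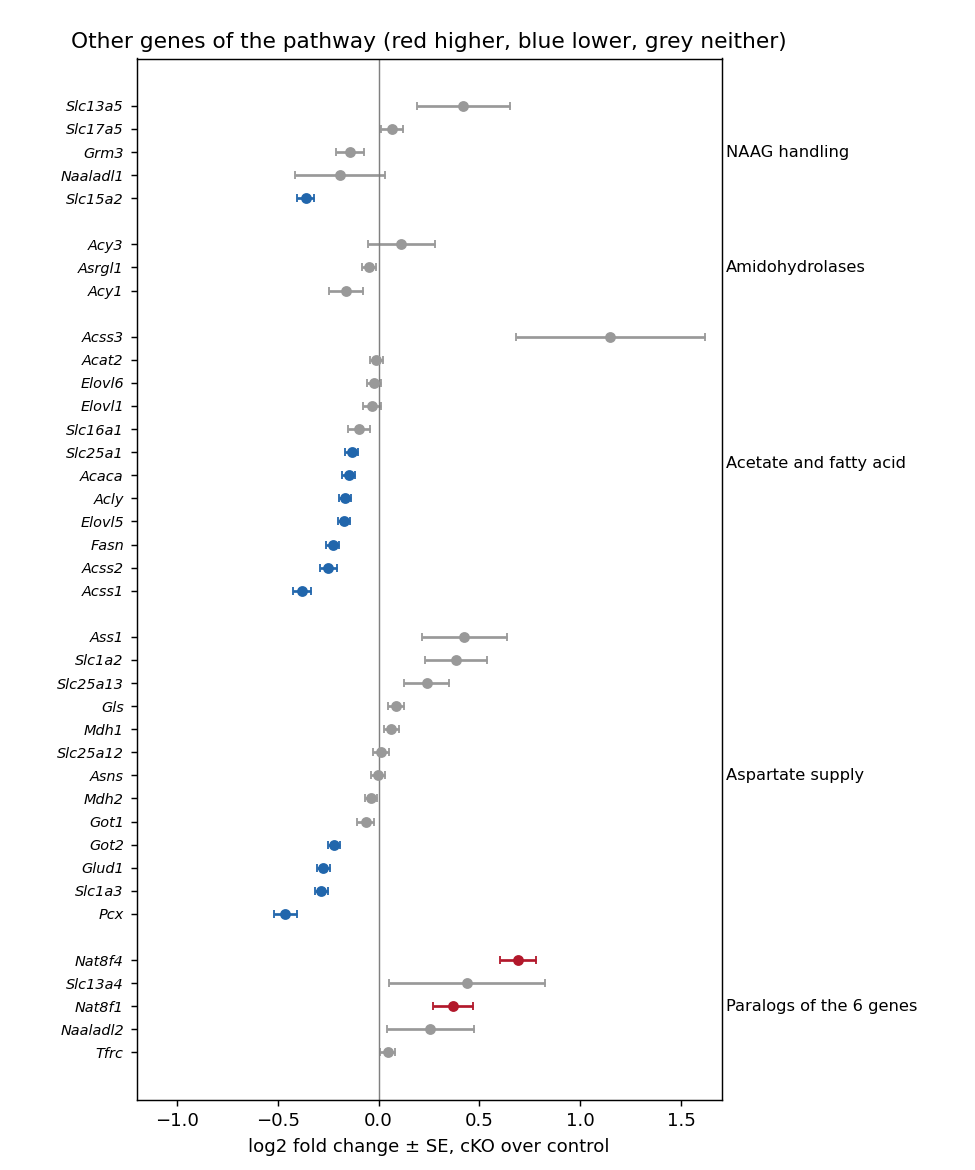
Log2 fold change of cKO over control ± SE for the 38 other pathway genes tested, by list. Red marks genes that rose, blue genes that fell and grey genes that did not pass; 7 of 12 acetate and fatty acid genes are blue and 0 red, and Nat8f4 and Nat8f1 are the only red points.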

How the data were processed

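RNA-seq of 4 cKO and 4 control cultures was analysed. The submitters' processing notes name mm10 and the tools STAR, cutadapt, Partek and DESeq2. No versions, annotation or strand setting are stated in the sources used here. The authors deposited estimated counts per gene, not normalized; 52% of values are not whole, so reads may be divided among features that share sequence. Counts were rounded, filtered by filterByExpr (minimum count 10) and scaled by TMM. They were fitted with edgeR 4.0.16 (glmQLFit robust, glmQLFTest, two-sided) with batch as a block, because the labels name the batch of each library; deviations from group means correlated at 0.75 to 0.79 within batches. P-values were adjusted by Benjamini-Hochberg over 18102 genes. CPM are counts scaled to the TMM-adjusted library size; 1 count is 0.0159 to 0.0223 CPM. TPM used exon unions of GENCODE M21, matched for 23209 genes by symbol and position. Promoters came from RefSeq, with 5 of the 6 genes matched. The members and lists were chosen with earlier results of these data known. Named were the 6 genes, up to 4 called genes per list by p, and the 5 (Aspa) or 3 (others) genes of highest r; other marker, list and neighbouring genes were named after their values were seen. Alternatives were no block, other scaling, filters and tools, unrounded counts, and each batch left out. No 2 libraries of a group agreed within sampling noise (chi-square per degree of freedom 54.2 to 251). The fit was tested on simulated data.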

Additional observations from a re-analysis of the deposited data

Results flagged for a closer look

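With a prior count of 2, the log2 difference of Aspa within batch 1 was 1.74, against 1.92 to 1.93 in batches 3, 4 and 6, and its gap to the nearest of these was 0.935 of the whole range, above Dixon's critical value for 4 values. Without a prior count, an alternative added after seeing the data, the differences were 1.79, 2.39, 2.08 and 2.01 in batches 1, 3, 4 and 6. The largest gap was then 0.509 of the range, under that critical value, so batch 1 stood apart only with the prior count, which draws the pairs of few counts towards 0. Of 18 sets of 4 values examined in this way (6 genes, each group and the differences within batches), this was 1 set, and chance gives about 1 in 20.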

How the results depend on the processing

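Leaving the replicate block out moved every count. It called 3 genes, 1 higher and 2 lower, and 893 at an unadjusted p under 0.05; of the 6 genes 0 were called, and of the other pathway genes 0 higher and 0 lower. Fold changes on the log2 scale were then 1.95 for Aspa, -0.17 for Nat8l, 0.27 for Rimkla and -0.78 for Slc13a3, none past the threshold. Rimkla was not past it in DESeq2 (0.26), and Rimklb passed in limma-voom (-0.15). Leaving out each batch in turn gave 2102 to 3432 genes called, 1127 to 1702 higher and 910 to 1730 lower, with 2 to 4 of the 6 genes and 1 to 2 higher pathway genes; the counts were 2367, 2102 and 2118 without batch 1, 3 and 4. Over those fits Nat8l ran from -0.19 to -0.13, Rimkla from 0.23 to 0.34 and Rimklb from -0.18 to -0.10, and Rimklb passed only without batch 3. Why these calls moved was not tested, beyond the smaller number of pairs. Aspa (1.94 to 2.09) and Slc13a3 (-0.84 to -0.70) passed in every fit with the block that tested them. Aspa and Folh1 have no value where 1 CPM in 4 libraries was required. The 12 pathway genes lower in cKO were 10 to 13 in fits with the block. Upper-quartile scaling gave 2021 genes higher and 1553 lower, and no filter 2027 and 1709; scaling moved the median of all genes by less than 0.1 (log2). Depth limits Aspa most, with 4 counts in control library 3. No direction of the 6 genes reversed.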

Other observations

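The neighbours of Aspa were read because several leaned the same way, and they were chosen after their values were seen. Shpk, which encodes the sedoheptulose kinase of the pentose phosphate pathway, lies 80480 bases from Aspa on chromosome 11 and had 12.5, 6.03, 5.34 and 6.36 CPM in cKO libraries 1, 3, 4 and 6, against 3.67, 1.75, 3.28 and 2.92 CPM in control libraries. Its groups did not overlap, and it rose with a log2 fold change of 1.34 ± 0.19 (SE, adjusted p = 0.00327 in edgeR). Between Shpk and Aspa lie Trpv1, under the filter, at 0.104 CPM in cKO and 0.0142 CPM in control libraries on average, and Trpv3 (log2 fold change 0.88 ± 0.34), a cation channel gene that did not pass. Spata22, a meiosis gene that begins 144 bases beyond the other end of Aspa on the opposite strand, had 1.10 ± 0.45 and did not pass either. Of the 8 genes tested within 200 kb of Aspa, 1 rose and 0 fell. Around all 6 genes, 8 of 41 tested neighbours were called, or 19.5%, close to the 20.5% of all genes.

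Naalad2, a relative of Folh1 that also cuts NAAG, was under the filter and so not tested. Its level was 0.123, 0.246, 0.435 and 0.242 CPM in cKO libraries 1, 3, 4 and 6, against 0.0980, 0.0904, 0.111 and 0.114 CPM in control libraries. The groups did not overlap, as for 3.68% of genes tested, but they rest on very few reads. Counts were 7, 11, 22 and 15 in cKO and 5, 5, 7 and 6 in control libraries, and Naalad2 was named after its values were seen. Eya2, a transcriptional cofactor gene 121801 bases from Slc13a3, fell by 1.16 ± 0.14 on the log2 scale, a greater drop than that of Slc13a3 itself. The neighbours did not share that direction: of the 8 genes tested within 200 kb of Slc13a3, 2 rose and 2 fell. Over all genes tested, 10.0% were called higher and 10.4% lower.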
